A study of Mus musculus with 6 samples.

Results

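Sparc, Twist1 and 8 further genes of the mesenchymal matrix (Col1a1, Col1a2, Col3a1, Col5a1, Fn1, Thy1, Pdgfra and Fbn1) were followed across 3 related mouse lung cell lines. The members were every array probe that carried one of these gene names. Probes were found for 9 of the 10 genes, among 18138 gene names on the array, and these were 11 of its 25697 probes. No probe carried the name Fn1. The genes were chosen on measured values of these same arrays, taken here to be the differences between the lines, since the rule of choice names no value. Their levels and differences are therefore given as descriptions, without a p-value.

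RNA from each line was hybridised to 2 single-colour Illumina MouseRef-8 v2.0 bead arrays, 6 arrays in total. The parental line, EPC, was grown in endothelial medium from lung cells of athymic nude mice and was used at passage 3 to 6. The cells had been sorted on surface markers, as positive for Flk-1 and c-Kit and negative for CD45. EPC_acLDL came from EPC cells that had taken up fluorescent acetylated LDL, a modified lipoprotein used to mark endothelial cells and macrophages, and was also used at passage 3 to 6. EPC_Late was EPC_acLDL carried to passage 16 to 20. The other lines therefore descend from EPC, and the number of isolates behind the arrays is not stated. EPC_Late differs from EPC_acLDL in passage, and from EPC in passage and selection together. The methods describe independent experiments and duplicate runs, but not whether the 2 arrays of a line are separate experiments or duplicates of one, so that the spread between them may be technical. The comparisons ask how far the selected and the high-passage line had moved from the parental line. They share arrays with each other and are not independent.

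Sparc encodes a secreted, collagen-binding matricellular glycoprotein that is made in quantity by fibroblasts, bone cells and cultured endothelial cells and that takes part in collagen fibril assembly. The collagen genes encode the chains of fibrillar collagens, with type I collagen built from the products of Col1a1 and Col1a2, while Fbn1 encodes fibrillin of the microfibrils and Fn1 fibronectin. Twist1 is a basic helix-loop-helix transcription factor of embryonic mesoderm and of epithelial-mesenchymal transition, and proteins of this class bind DNA at E-boxes, written CANNTG. Thy1 (CD90) and Pdgfra, a receptor for platelet-derived growth factor, are surface proteins of fibroblasts and other stromal cells.

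The upstream sequences of Sparc and Col1a2 are shown because these were the 2 matrix members measured above background, and Twist1, which was measured with them, belongs to the factors that bind E-boxes. Each is the 250 bases before the annotated gene start in RefSeq, assembly GRCm38.p6, 5′ to 3′ on the strand of the gene, with each CANNTG in capitals. The Sparc sequence lies at chr11:55420081-55420330 on the minus strand and the Col1a2 sequence at chr6:4505368-4505617 on the plus strand.
Sparc: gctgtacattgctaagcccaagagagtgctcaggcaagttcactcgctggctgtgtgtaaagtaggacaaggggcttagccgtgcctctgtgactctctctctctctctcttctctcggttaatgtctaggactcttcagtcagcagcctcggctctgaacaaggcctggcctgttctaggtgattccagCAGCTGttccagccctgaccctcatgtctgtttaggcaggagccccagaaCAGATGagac
Col1a2: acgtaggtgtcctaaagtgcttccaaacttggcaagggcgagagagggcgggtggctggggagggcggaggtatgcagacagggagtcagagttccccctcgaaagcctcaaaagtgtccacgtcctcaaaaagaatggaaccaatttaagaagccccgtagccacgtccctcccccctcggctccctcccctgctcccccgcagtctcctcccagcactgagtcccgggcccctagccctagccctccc
CANNTG is its own reverse complement, so that one search covers both strands. It occurred 2 times upstream of Sparc and 0 times upstream of Col1a2. In the 32851 mouse promoters of the same length 21753, or 66.2%, held at least 1 match, and 31.8% held at least as many as Sparc. A match describes the letters only, and its absence says only that these letters are not in this window.

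Expression was read as fluorescence intensity, with a detection p-value for each probe, the share of the negative control beads of that array that were at least as bright. A probe was taken as above background where this value was below 0.05. Of the 11 member probes 3 were above background, each on all 6 arrays: one probe each of Sparc, Twist1 and Col1a2. The other 8 were above background on 0 of 6 arrays. These were the second Sparc probe, the single probes of Col1a1, Col5a1, Fbn1, Thy1 and Pdgfra, and both probes of Col3a1. Detection was rare throughout these arrays, since 22811 of the 25697 probes (88.8%) were above background on no array and 1686 (6.56%) on all 6.

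**Figure D1:**
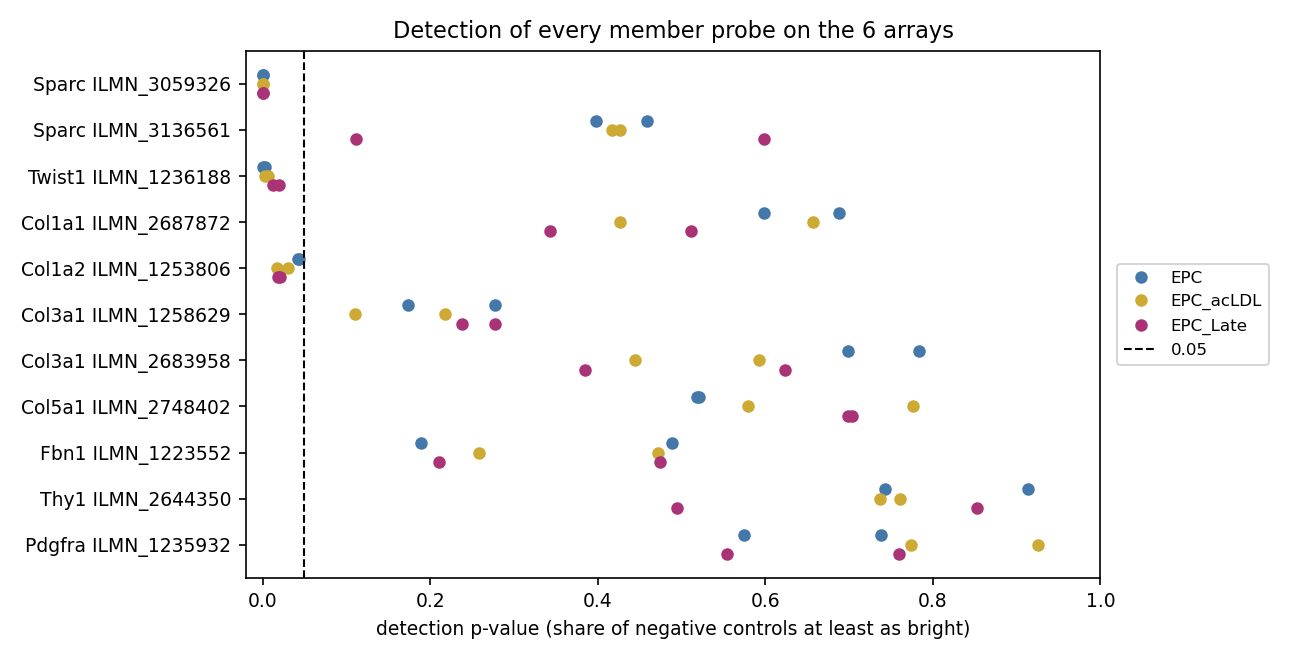
Detection p-value (horizontal axis, no unit) of each of the 11 member probes, 1 point an array, coloured by line, with the threshold of 0.05 as a dashed line. The points of 3 probes (Sparc ILMN_3059326, Twist1 ILMN_1236188 and Col1a2 ILMN_1253806) all lie left of the line and those of the other 8 all lie right of it.

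The 8 dim probes gave only an upper bound on the level of their genes. Col1a1 ranged from 290.7 to 373.8 intensity units over the 6 arrays, with detection p-values of 0.343 to 0.688. The nearest to the threshold were the second Sparc probe, ILMN_3136561, and the Col3a1 probe ILMN_1258629, with lowest detection p-values of 0.112 and 0.11. By the same measure the farthest were Pdgfra, from 275.1 to 351.3 units with detection p-values of 0.554 to 0.926, and Col5a1, from 275.0 to 337.3 units with detection p-values of 0.519 to 0.776. Thy1 lay between 261.3 and 333.1 units, with detection p-values of 0.495 to 0.914. A dim probe did not show that a transcript was absent. Of 360 genes with exactly 2 probes, at least 1 of which was above background on all arrays, both probes were so in 33 (9.17%). Sparc was itself such a gene with 1 bright and 1 dim probe.

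Sparc stood higher in each line than in the one it came from, with its widest step into EPC_Late. In bulk RNA, fewer cells of a type and less RNA per cell cannot be told apart. Probe ILMN_3059326 read 1948.6 and 1702.1 intensity units in EPC, 3086.4 and 2869.6 in EPC_acLDL, and 6440.1 and 6122.7 in EPC_Late. The intensities of any pair of lines were separate, and the lowest EPC_Late array stood above the highest EPC_acLDL array. With 2 arrays a line such separation was common. Of all probes tested, 57.4% were separate between EPC and EPC_acLDL, 70.8% between EPC and EPC_Late and 52% between EPC_acLDL and EPC_Late, and on the normalized log2 scale 50.8%, 58% and 58.6%. After background correction and quantile normalization the mean log2 signal was 10.65 ± 0.13 (SD, n = 2) in EPC, 11.22 ± 0.02 in EPC_acLDL and 12.59 ± 0.08 in EPC_Late. On that scale the step from EPC to EPC_Late was 1.94 (SE 0.12), a 3.85-fold higher signal. Of this, 0.57 (SE 0.12), or 1.49-fold, lay between EPC and EPC_acLDL, and 1.37 (SE 0.12), or 2.59-fold, between EPC_acLDL and EPC_Late. Among all probes tested Sparc ranked 32nd for increase from EPC to EPC_Late, 37th from EPC_acLDL to EPC_Late and 111th from EPC to EPC_acLDL.

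The second Sparc probe, ILMN_3136561, read 317.2 and 343.6 units in EPC, 308.0 and 350.9 in EPC_acLDL, and 393.9 and 344.7 in EPC_Late. Its arrays overlapped between EPC and EPC_acLDL and lay at background in every line, so it neither repeated nor opposed the pattern of the bright probe.

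Twist1 ran the other way, with its lowest signal in EPC_Late. Probe ILMN_1236188 read 597.5 and 576.6 units in EPC, 568.5 and 589.0 in EPC_acLDL, and 514.9 and 550.3 in EPC_Late. Both EPC_Late arrays stood below all arrays of the other lines, while the intensities of EPC and EPC_acLDL overlapped. The mean log2 signal was 8.11 ± 0.17 (SD, n = 2) in EPC, 7.80 ± 0.03 in EPC_acLDL and 7.47 ± 0.10 in EPC_Late. The fall from EPC to EPC_Late was -0.64 (SE 0.13), against -0.31 (SE 0.13) from EPC to EPC_acLDL and -0.33 (SE 0.13) from EPC_acLDL to EPC_Late. The step from EPC to EPC_acLDL was -0.15 with a 75th percentile shift and -0.07 without normalization. Leaving out an array moved that step to between -0.43 and -0.18, so its size depended on the scaling and on single arrays. The probe was dim, and its difference between EPC and EPC_Late was -0.25 when the background was not subtracted.

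Col1a2, which encodes the alpha 2 chain of type I collagen, was highest in EPC_Late but close to background in every line. Probe ILMN_1253806 read 431.5 and 456.5 units in EPC, 498.3 and 508.5 in EPC_acLDL, and 521.5 and 530.8 in EPC_Late. The order of the lines was that of Sparc, and the arrays of different lines did not overlap, but the whole range was narrow and the detection p-values, from 0.0175 to 0.0439, lay just inside the threshold. The mean log2 signal was 6.99 ± 0.01 (SD, n = 2) in EPC, 7.26 ± 0.14 in EPC_acLDL and 7.42 ± 0.04 in EPC_Late. The difference from EPC was 0.27 (SE 0.12) in EPC_acLDL and 0.43 (SE 0.12) in EPC_Late, and that between EPC_acLDL and EPC_Late was 0.16 (SE 0.12). Without normalization the step from EPC to EPC_acLDL was 0.53 and that from EPC_acLDL to EPC_Late -0.0011. These steps ran from 0.17 to 0.37 and from 0.06 to 0.25 with an array left out. Col1a1, whose product joins that of Col1a2 in type I collagen, was above background on 0 of 6 arrays.

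**Figure D2:**
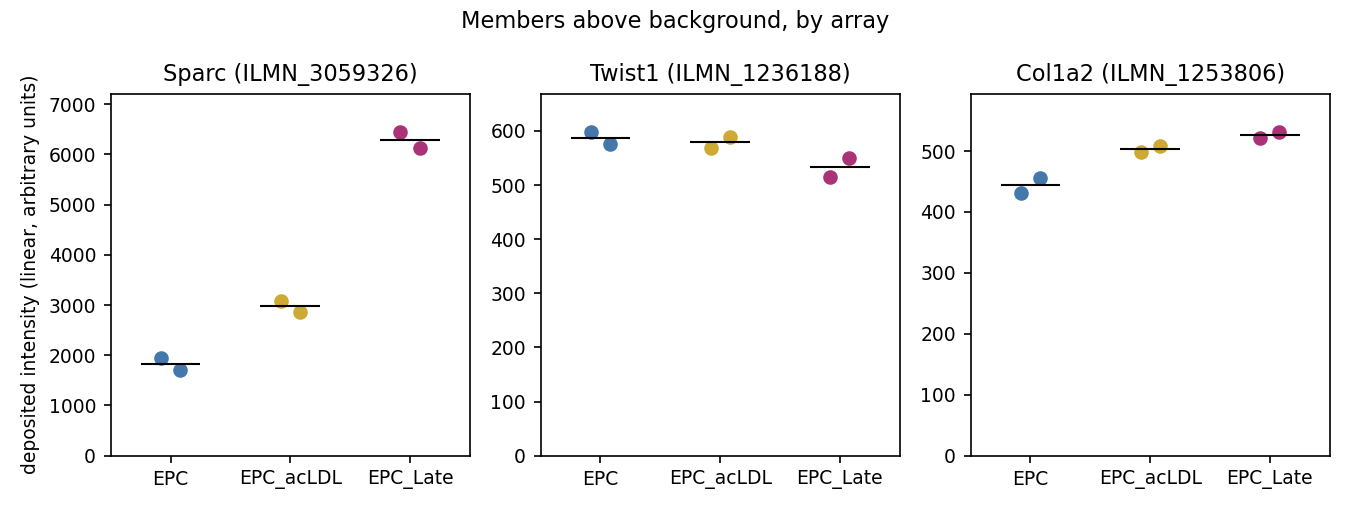
Intensity (vertical axis, linear units as deposited) of the 3 member probes above background, 1 point an array, by line, with the mean of the 2 arrays of a line as a bar. Sparc climbs from EPC through EPC_acLDL to EPC_Late, Twist1 is lowest in EPC_Late, and Col1a2 rises over a narrow range.

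A probe entered the test between lines if the 2 arrays of some line both read it above background, which held for 2333 probes, the 3 bright member probes among them. It was called where limma's adjusted p was below 0.05. Between EPC and EPC_Late 23.9% of the probes tested were called, and 3 of the 3 member probes were, Sparc and Col1a2 higher (10.9% of all probes were called higher) and Twist1 lower (13% of all probes were called lower). Between EPC_acLDL and EPC_Late 20.9% of probes were called, 9.34% higher and 11.5% lower in EPC_Late, and of the 3 member probes 1, Sparc, was called higher. Between EPC and EPC_acLDL 3.3% of probes were called by limma, 1.93% higher and 1.37% lower in EPC_acLDL, and 0 of the 3 member probes, with 1 of 3 at an unadjusted p below 0.05. The balance of all calls moved with the scaling of the arrays. The share of calls that were higher in EPC_acLDL than in EPC was 58.4%, but 82.6% with a 75th percentile shift and 91.6% without normalization, and the share higher in EPC_Late than in EPC_acLDL was 44.8%, 26.1% and 24.5%. These scalings moved the median log2 difference of all probes to 0.16 and 0.25 in the first comparison and to -0.15 and -0.16 in the second. The counts of members describe 3 probes chosen with the results known and support nothing further.

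The Sparc difference between EPC and EPC_Late ranged from 1.74 to 2.04 over 15 alternatives that kept limma, in processing or with an array left out, which describes the same arrays on which the gene was chosen. The methods' t-test after adjustment called 0 members, Sparc included, and 0 of all probes tested, in every comparison. That of Twist1 lost its call without EPC replicate 1, at -0.52, and without EPC_Late replicate 1, at -0.57. That of Col1a2 lost its call without any 1 of the 6 arrays, with a fixed offset and without background correction, where it was 0.14. The call was also lost with a 75th percentile shift, without the detection filter, with limma-trend and with a replicate block. The Sparc difference between EPC and EPC_acLDL ranged from 0.48 to 0.83 over the 15.

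**Figure D3:**
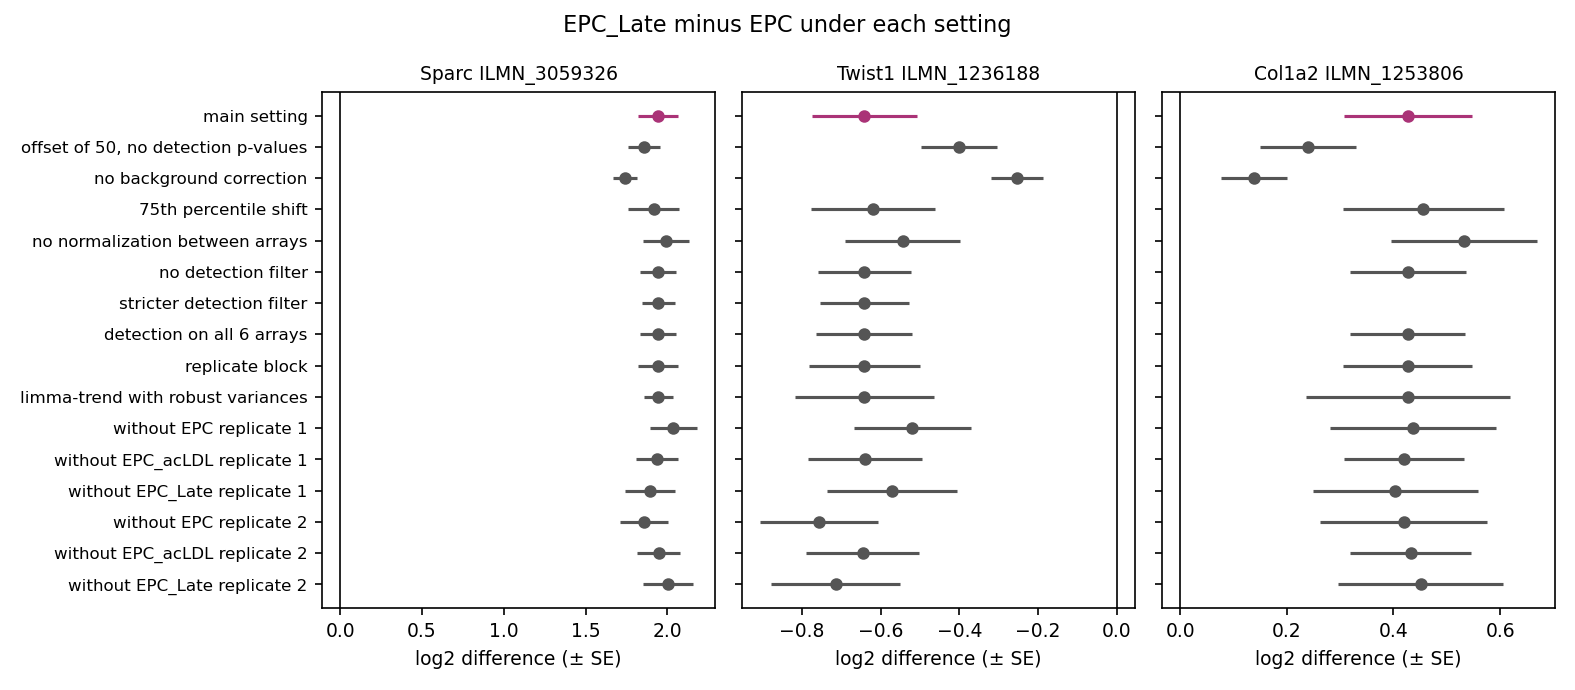
Log2 difference between EPC_Late and EPC with its standard error (horizontal axes, each on its own scale) of Sparc, Twist1 and Col1a2, under the reported processing (coloured) and 15 alternatives, 1 point a setting. Sparc stays between 1.74 and 2.04, Twist1 moves to -0.25 and Col1a2 to 0.14 without background correction, and Col1a2 has no point for the stricter detection filter, which it did not pass.

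The rest of the matrix programme was described with a list of 184 further matrix and mesenchymal genes, of which 167 had a probe, 255 probes together. As with the members, most lay at background, with 223 of the 255 probes above it on no array and 16 on all 6. The test covered 23 probes of 20 genes. Of these, 7 were called higher and 0 lower in EPC_Late than in EPC, 7 higher and 0 lower in EPC_Late than in EPC_acLDL, and 1 higher and 0 lower in EPC_acLDL than in EPC. Over all probes tested the shares called higher and lower were 10.9% and 13%, 9.34% and 11.5%, and 1.93% and 1.37%. With an array left out the list counts fell to between 3 and 5, between 1 and 5, and 0. The fewest were found without EPC_Late replicate 2 in the first comparison and without EPC_acLDL replicate 1 in the second, and 0 without any 1 of the arrays in the third. The list was drawn up with earlier results of these arrays known, so its counts and the p-values of its genes are not independent evidence of a direction. The median log2 differences were 0.41, 0.22 and 0.15, beside 0.0056, 0.0028 and 0.0075 over all probes tested. The difference was positive for 20, 16 and 16 of the 23 probes, beside 50.6%, 50.4% and 51.1% of all probes. Some of the 23 passed the filter only through the line in which they were bright, which favoured a higher signal in that line. Among them were 2 of the 7 called in each comparison of EPC_Late, Thbs3 and 1 probe of Prrx1. With only the 16 probes above background on all 6 arrays, a setting chosen after seeing the data, 5, 6 and 1 were called. Of all 1686 probes tested in that setting, 486, 446 and 99 were called, in the same order.

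By role, the called genes were few in each group. Of the fibrillar and other collagens 1 probe of 19 was bright enough to test, and it was not called in any comparison. In the basement membrane list 1 of 22 probes was tested, Lamb2, and it was called in both comparisons of EPC_Late. Of the collagen-processing enzymes 4 of 26 probes were tested, and 1 was higher in EPC_Late than in EPC and 2 than in EPC_acLDL. Of the matricellular proteins, the class that holds Sparc, 3 of 27 probes were tested and 1, Thbs3, was called in each comparison of EPC_Late. It passed the filter through EPC_Late alone, so its calls are a description. Of 29 probes of matrix proteases and their inhibitors 4 were tested, and 1 was called in each comparison of EPC_Late. Among mesenchymal transcription factors and their partners 5 of 28 probes were tested, and 3 were higher in EPC_Late than in EPC. Of these 3, 1 was a Prrx1 probe that also passed the filter through EPC_Late alone. The elastic fibre, proteoglycan, matrix receptor and TGF-beta lists had 2, 1, 1 and 1 probes tested, and 0 were called in any comparison at limma's adjusted threshold.

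Lamb2, the laminin beta 2 chain of basement membranes, showed the largest differences of EPC_Late among the listed genes. Its probe ILMN_2699488 read 1428.8 and 1392.3 units in EPC, 2014.8 and 1817.8 in EPC_acLDL, and 4093.4 and 4035.3 in EPC_Late. The 2 EPC_Late arrays were well above the other 4. The log2 difference was 1.77 (SE 0.12, limma adjusted p = 0.000242) from EPC to EPC_Late and 1.45 (SE 0.12, limma adjusted p = 0.000769) from EPC_acLDL to EPC_Late. From EPC to EPC_acLDL it was 0.32 (limma adjusted p = 0.191), which did not pass. It was past the threshold without background correction, at 0.25, without normalization, at 0.55, and with limma-trend.

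Serpine2, or protease nexin-1, an inhibitor of thrombin and plasminogen activators, read 525.8 and 562.7 units in EPC, 647.1 and 711.2 in EPC_acLDL, and 869.7 and 1000.2 in EPC_Late. The lines did not overlap. The log2 difference of EPC_Late was 1.31 (SE 0.14, limma adjusted p = 0.00124) from EPC and 0.88 (SE 0.14, limma adjusted p = 0.00692) from EPC_acLDL, the latter lost without EPC_acLDL replicate 1. Without background correction these were 0.68 and 0.49.

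Thbs3, a thrombospondin of the matricellular class, was above background on the 2 EPC_Late arrays, at 469.9 and 494.0 units, and on none of the other 4, which lay between 346.0 and 426.9. It entered the test through EPC_Late alone, which favoured a higher signal there, and its values are given as a description. EPC_Late was at least 1.13-fold above EPC and at least 1.19-fold above EPC_acLDL. These bounds set the mean signal of EPC_Late against the lowest signal above background in the dim line, or the probe's own signal where that was higher, after background correction and normalization.

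Among the transcription factors Tcf4, a class I helix-loop-helix protein with which Twist1 can pair, read 713.4 and 673.4 units in EPC, 1012.6 and 1032.4 in EPC_acLDL, and 918.6 and 938.1 in EPC_Late. It was the only listed gene called between EPC and EPC_acLDL, at 0.69 (SE 0.12, limma adjusted p = 0.0429), and this call was lost without any 1 of the 6 arrays and without the detection filter. From EPC to EPC_Late it rose by 0.54 (limma adjusted p = 0.0217), a call lost without EPC replicate 2 or either EPC_Late array. Without background correction the values were 0.41 and 0.31. Between EPC_acLDL and EPC_Late it differed by -0.15 (SE 0.12, limma adjusted p = 0.465), which did not pass.

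Foxc1, a forkhead factor of mesenchymal and vascular development, read 4082.6 and 4107.6 units in EPC, 4880.8 and 4348.9 in EPC_acLDL, and 5527.2 and 5464.3 in EPC_Late. EPC_Late was higher by 0.41 than EPC (SE 0.11, limma adjusted p = 0.0451) and by 0.46 than EPC_acLDL (limma adjusted p = 0.0324), and each call was lost without any 1 of the 6 arrays. With a 75th percentile shift the second difference was 0.28 (limma adjusted p = 0.216) and without normalization 0.27 (limma adjusted p = 0.186), and both calls were lost with the shift and without the detection filter.

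Prrx1, a homeobox factor of limb and craniofacial mesenchyme, had 2 probes tested. Its probes ILMN_3134079 and ILMN_2614463 were above background on 0 arrays and were not tested. Probe ILMN_3057018 was above background on 0 EPC, 1 EPC_acLDL and 2 EPC_Late arrays, read 400.7 to 450.7 units in the first 2 lines and 488.3 and 546.6 in EPC_Late, and was at least 1.41-fold above EPC there. From EPC_acLDL, where 1 of 2 arrays measured it, EPC_Late differed by 0.63 on the log2 scale, or 0.20 without background correction. The bound holds on the background-corrected scale only. This probe too entered the test through EPC_Late alone and is given as a description. The second probe, ILMN_2678094, was above background on all 6 arrays. EPC_Late differed there by 0.44 from EPC (SE 0.18, limma adjusted p = 0.152) and by 0.09 from EPC_acLDL (limma adjusted p = 0.788, with overlapping arrays), neither of which passed.

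The collagen-processing calls rested on genes whose probes disagreed in part. Lepre1, a prolyl 3-hydroxylase that modifies collagen chains, read 1697.1 and 1533.6 units in EPC, 1614.2 and 1540.5 in EPC_acLDL, and 2237.3 and 2123.0 in EPC_Late at probe ILMN_1258906. EPC_Late was higher by 0.47 than EPC (SE 0.13, limma adjusted p = 0.0385), a call lost without any 1 of the 6 arrays, with a 75th percentile shift and without the detection filter, and by 0.78 than EPC_acLDL (limma adjusted p = 0.00754), lost without either EPC_acLDL array. The other Lepre1 probe, ILMN_3150634, gave -0.22 and -0.25, neither of them called. Bmp1, the procollagen C-proteinase, read 846.6 and 819.7 units in EPC_acLDL and 1013.9 and 1019.1 in EPC_Late at probe ILMN_1218116, a difference of 0.56 (SE 0.15, limma adjusted p = 0.0424) that was lost without any 1 of those 4 arrays and was 0.34 without background correction. It was lost as well with a 75th percentile shift, without normalization and without the detection filter. Its other probe, ILMN_2713538, gave 0.44 (limma adjusted p = 0.059), short of the threshold.

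**Figure D4:**
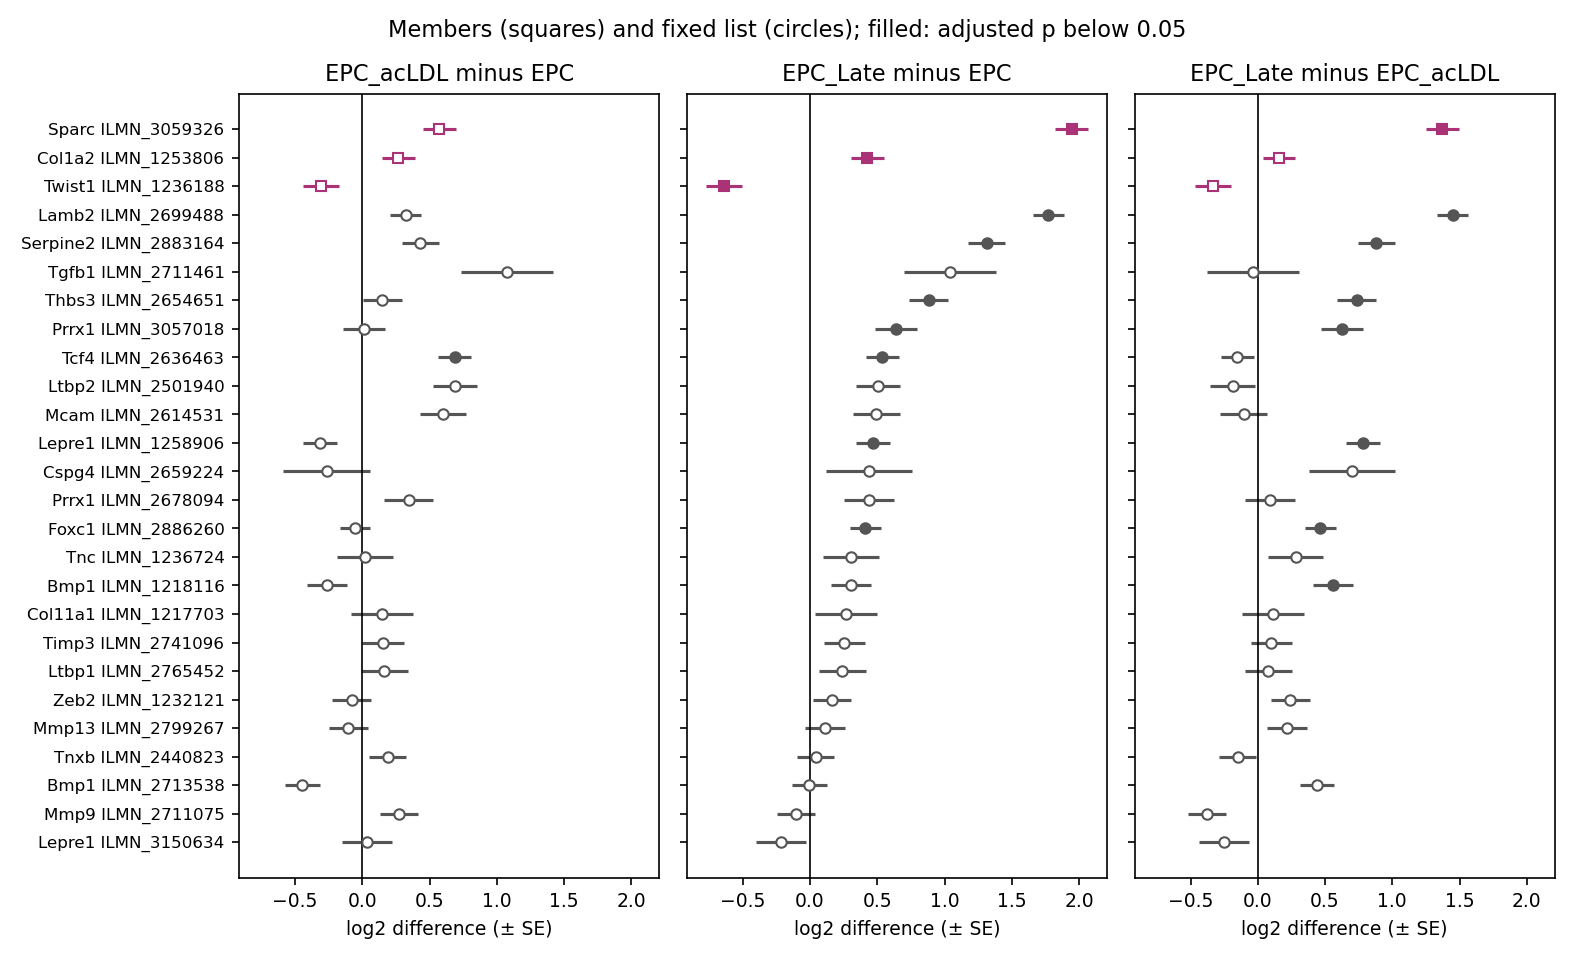
Log2 difference with its standard error (horizontal axis) of the 3 tested member probes (squares) and the 23 tested probes of the matrix list (circles), for each pairwise comparison of lines, filled where the adjusted p was below 0.05. Thbs3 and Prrx1 ILMN_3057018 entered through EPC_Late alone. Sparc, at 1.94, and Lamb2, at 1.77, lie farthest to the right for EPC_Late against EPC, and Twist1, at -0.64, lies left of 0.

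The probes most like Sparc and Twist1 were taken from the 1685 other probes above background on all 6 arrays, as those with the smallest root mean square distance between log2 profiles centred on their own mean. Nearest to Sparc were Hdac5, a class IIa histone deacetylase, at a distance of 0.104, the kinase gene Dyrk1b at 0.114 and Lamb2 at 0.132, with Pearson correlations of 0.998, 0.996 and 0.988 over the 6 arrays. Nearest to Twist1 were the tubulin gene Tuba3b at 0.0682, Arpc1a, a subunit of the Arp2/3 actin-nucleating complex, at 0.0801, and Hnrpk, an RNA-binding protein, at 0.0834, with correlations of 0.97, 0.959 and 0.993. The 6 points are 3 lines with 2 arrays each, so a correlation here mostly compares 3 line means.

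Markers of the cell types that such cultures could hold were mostly at background too. Of 12 endothelial marker genes, Kdr (Flk-1), for which the cells were sorted, was above background on all 6 arrays, from 548.7 to 609.3 units. The other 11, among them Pecam1, Cdh5, Tek and Vwf, were above it on none. By flow cytometry the paper reports CD31, the Pecam1 protein, on each line. Of 12 further mesenchymal and fibroblast markers, Prrx1 and S100a4 were above background on all arrays and 10, with Vim, Dcn, Pdgfrb and Postn, on none. Acta2, Cspg4 and Des were so among 7 smooth muscle and mural markers, Cdh1 among 8 epithelial ones, and 0 of 9 haematopoietic ones. Each gene was counted by its best-detected probe. Of Acta2 only ILMN_2710354 was above background on all arrays, at 496.7 to 564.1 units, while ILMN_2710353 was so on 1 and its other probes on 0. Prrx1 also had probes above background on 0 arrays. The summed intensity of the mesenchymal markers was 5546 to 6161 units in EPC, 5577 to 6207 in EPC_acLDL and 5942 to 6645 in EPC_Late, and that of the endothelial markers 5593 to 6202, 5593 to 6227 and 6065 to 6524. These sums consist largely of background, and their part in the Sparc result was not tested. Among 14 widely expressed genes, a list chosen after the member values were seen, Actb, Eef1a1, Ppia, Tuba1a and Ywhaz were above background on all arrays, and the other 9, Gapdh, B2m and Rplp0 among them, on none. The labelled cell type could therefore not be checked from undetected markers, and the dim member probes are bounds and not absences.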

How the data were processed

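RNA of 3 lines was measured on 2 Illumina MouseRef-8 v2.0 arrays each, and samples were grouped by their labels. The authors deposited 1 table of linear probe intensities after local background subtraction and without normalization between arrays, and, beside each intensity, a detection p-value. The array names its own genes, some of them old, and probe sequences and a genome build are not given in the sources used here. Arrays have no read depth, so their number limits the precision.

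Intensities were processed with neqc of limma 3.58.1 in R 4.3.3 (normexp background estimated from the detection p-values, offset 16, quantile normalization, log2). The offset and the background step compress or stretch the differences of dim probes. Probes for which the 2 arrays of some line both had detection p-values under 0.05 were fitted with lmFit and eBayes, all 6 arrays in one fit without covariates, and p-values were adjusted by the Benjamini-Hochberg method over the 2333 probes tested. The fitting was tested on simulated data, with a limit on false calls set only for probes above background on all 6 arrays. The members and the lists were chosen with earlier results of these data known. The probes named are every member probe, up to 10 called probes of the matrix list in each direction and comparison by size of difference, and the 3 probes nearest in profile to Sparc and to Twist1. Alternatives were a fixed offset of 50 without detection p-values, no background correction, a 75th percentile shift or no normalization, no filter, a detection threshold of 0.01, a replicate block, each array left out, limma-trend and the methods' t-test. Detection on all 6 arrays was added after seeing the data. RefSeq names and promoters (GRCm38.p6) were matched by symbol for 10 of 10 members, and 8 of the 11 member probes stayed out of the test.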

Additional observations from a re-analysis of the deposited data

How the results depend on the processing

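Over the 3 tested member probes and the 8 listed probes called in at least 1 comparison, 381 alternative values kept direction and side of the threshold, 81 lost the threshold, 11 gained it and 7 changed sign. The count of member probes called between EPC and EPC_acLDL, 0 in the reported processing, was 1, Sparc, under limma-trend, detection on all 6 arrays, the stricter filter, no normalization, the 75th percentile shift, no background correction, the offset of 50 and the methods' t-test unadjusted. With an array left out it was 0. Between EPC and EPC_Late the 3 member calls became 1 to 2 with an array left out (1 without replicate 1 of EPC or EPC_Late), and between EPC_acLDL and EPC_Late the 1 call stayed 1 to 1 and was 2 by the unadjusted t-test. The methods' t-test after adjustment called 0 member, 0 list and 0 of all probes in every comparison, against 354, 579 and 566 of all probes unadjusted and limma's 77, 557 and 487. These limma counts ran from 9 (without EPC_acLDL replicate 1) to 285 (without normalization), from 370 (without EPC_Late replicate 1) to 693 (limma-trend) and from 203 (without EPC_acLDL replicate 1) to 631 (limma-trend). The matrix list count of 1 between EPC and EPC_acLDL was 4 with limma-trend, 6 without normalization, 3 after the 75th percentile shift, 3 without background correction, 3 by the unadjusted t-test, 0 without the filter, 0 with the replicate block and 0 to 0 with an array left out. Its 7 calls between EPC and EPC_Late became 3 to 5 with an array left out (3 without EPC_Late replicate 2, 4 without EPC replicate 2 or an EPC_acLDL array). Its 7 calls between EPC_acLDL and EPC_Late were 4 without the filter, 4 without normalization, 4 after the 75th percentile shift and 1 to 5 with an array left out (1 without EPC_acLDL replicate 1, 3 without EPC_Late replicate 2, 4 without EPC_acLDL replicate 2 or EPC_Late replicate 1). A lower call appeared in the list for EPC_acLDL against EPC without background correction (2 of 3 higher), EPC_Late against EPC without the filter (5 of 6) and EPC_Late against EPC_acLDL by the unadjusted t-test (6 of 7). The sign changed in 7 cases, none of them a call. Between EPC and EPC_acLDL, Bmp1 ILMN_1218116 went from -0.26 to 0.016 without normalization, and Foxc1 from -0.05 to 0.18 without normalization and 0.10 after the 75th percentile shift. With an array left out, Foxc1 ranged from -0.116 to 0.0124 (the latter without EPC_acLDL replicate 2), and Prrx1 ILMN_3057018, reported at 0.01, from -0.0626 (without EPC_acLDL replicate 1) to 0.085, with -0.03 without EPC replicate 1. Col1a2 between EPC_acLDL and EPC_Late went from 0.16 to -0.0011 without normalization. Beyond fewer arrays or probes, the cause was not tested. Same-numbered arrays deviated together by correlations of 0.021 to 0.079 after quantile normalization. That step removes array-wide shifts, so whether the numbers mark separate experiments could not be told. With the replicate block the list counts were 0, 7 and 5, and calls were lost by Col1a2 between EPC and EPC_Late, at 0.43, Foxc1 in both comparisons of EPC_Late, Bmp1 between EPC_acLDL and EPC_Late and Tcf4 between EPC and EPC_acLDL. Several widely expressed genes lay at background, which bears on bright probes too. RNA and hybridisation quality was not tested.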
